A study of Rattus norvegicus with 6 samples.

Results

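The mitochondrial genome of the rat was represented in the gene table by 37 genes, taken as the rows placed on chromosome MT, out of 34257 genes in all. They comprised 13 mRNAs, 2 ribosomal RNAs (rRNAs) and 22 transfer RNAs (tRNAs), which is the complete gene content of a mammalian mitochondrial genome. The cells were neonatal rat ventricular cardiomyocytes in primary culture. In 3 libraries the cells had been given vehicle, and in 3 they had been given perhexiline, a carnitine palmitoyltransferase inhibitor used against angina, at 1 µM for 24 h. The composition of the vehicle, the time in vehicle and the rat strain were not given in the labels. Whether the libraries of a group came from separate cultures or animals was not given either. The p-values therefore measure the spread between these libraries, which may be technical. No deletion or other treatment is named for either group.

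Mitochondrial DNA is transcribed by its own polymerase into long precursors that cover most of each strand. Most tRNA genes lie between the other genes, and their excision from the precursor releases the mRNAs and rRNAs. The mRNAs all encode core subunits of the respiratory chain and ATP synthase, which are made by mitochondrial ribosomes and joined to a larger number of nuclear-encoded subunits. Nearly all mitochondrial mRNAs receive a short poly(A) tail, ND6 being the known exception, whereas rRNAs carry at most very short tails and mature tRNAs end in CCA. Cardiomyocytes are rich in mitochondria, and their mitochondrial mRNAs are among the most abundant RNAs of the cell.

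Total depth was 13616252 to 16702523 fragments per library, recovered from the steps in the FPKM values (fragments per kilobase of gene, scaled to a size for each library). That size was 0.992, 1.003 and 1.027 times the total depth in vehicle replicates 1, 2 and 3. In the perhexiline replicates it was 1.041, 1.057 and 1.044 times, so FPKM was scaled down further in every perhexiline library. RNA had been selected on oligo(dT) beads, per the labels' protocols, so RNAs without a poly(A) tail are recovered in part. The labelled cell type was matched by its markers, since the summed FPKM of 10 cardiomyocyte markers (among them Tnnt2, Myh6 and Actc1) lay between 16362 and 23035 in every library. The groups overlapped in that sum (21315 ± 2580 in vehicle and 17411 ± 1435 in perhexiline, mean ± SD, n = 3), while Actn2, Tnni3 and Myh6 fell. The median log2 difference of the 10 was -0.38, 9 were negative, 7 were lower at an unadjusted p under 0.05 and 6 were called lower with limma-voom. Fibroblast, smooth muscle and endothelial marker sums also overlapped, although among fibroblast markers Dcn and Pdgfra rose and Col3a1 fell. The smooth muscle and pericyte sum was 969 ± 169 FPKM in vehicle and 685 ± 98.7 in perhexiline. Of those 7 markers 4 were negative and 3 positive, with a median log2 difference of -0.36. With limma 0 were called and 4 were lower at an unadjusted p under 0.05, and limma-voom called 3 lower and 0 higher. The sum of 8 macrophage markers was 38.9 to 43.6 FPKM in vehicle and 22.3 to 33.4 in perhexiline. Mrc1 and C1qa were called lower of 7 tested, and each of the 8 was above 0 in at least 1 library. The sum of 5 red blood cell markers was 5.34 to 9.58 FPKM in vehicle and 11.6 to 12.6 in perhexiline. Hba-a2 was called higher of 3 tested, and each of the 5 was above 0 in at least 1 library. Over all 13460 genes tested, limma called 3.11% lower and 3.55% higher, and 12.3% were lower at an unadjusted p under 0.05. Limma-voom called 809 of these genes lower and 753 higher. None of the 9 marker calls made with limma held without vehicle replicate 1 or without either of perhexiline replicates 2 and 3. The part of these cell type differences in the results that follow was not tested. In bulk RNA, fewer cells of a type and less RNA per cell cannot be told apart.

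Perhexiline libraries held less RNA from the mitochondrial genome as a whole, and its parts moved in different directions: the shares of fragments on mRNAs were lower, those on rRNAs were higher, and those on tRNAs overlapped between the groups. All 37 genes together took 7.71%, 6.88% and 7.75% of fragments in vehicle replicates 1, 2 and 3 and 6.65%, 5.87% and 5.88% in the perhexiline replicates. Every perhexiline library lay below every vehicle library, and the lowest vehicle library was replicate 2. The mRNAs made up nearly all of this, with 7.29 ± 0.48% of fragments in vehicle and 5.89 ± 0.48% in perhexiline (mean ± SD, n = 3). The rRNAs took 0.155%, 0.133% and 0.150% in vehicle and 0.194%, 0.259% and 0.232% in perhexiline, without overlap. The tRNAs took 0.00756 ± 0.00063% and 0.00750 ± 0.00054%, and these overlapped. The 95% Wilson intervals, which cover counting error only, reached at most 0.0142 percentage points to either side for all 37 genes and 0.0026 for the rRNAs, well inside the SD between libraries. For the tRNAs they reached up to 0.00048 points, about as much as the SD between libraries.

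**Figure D1:**
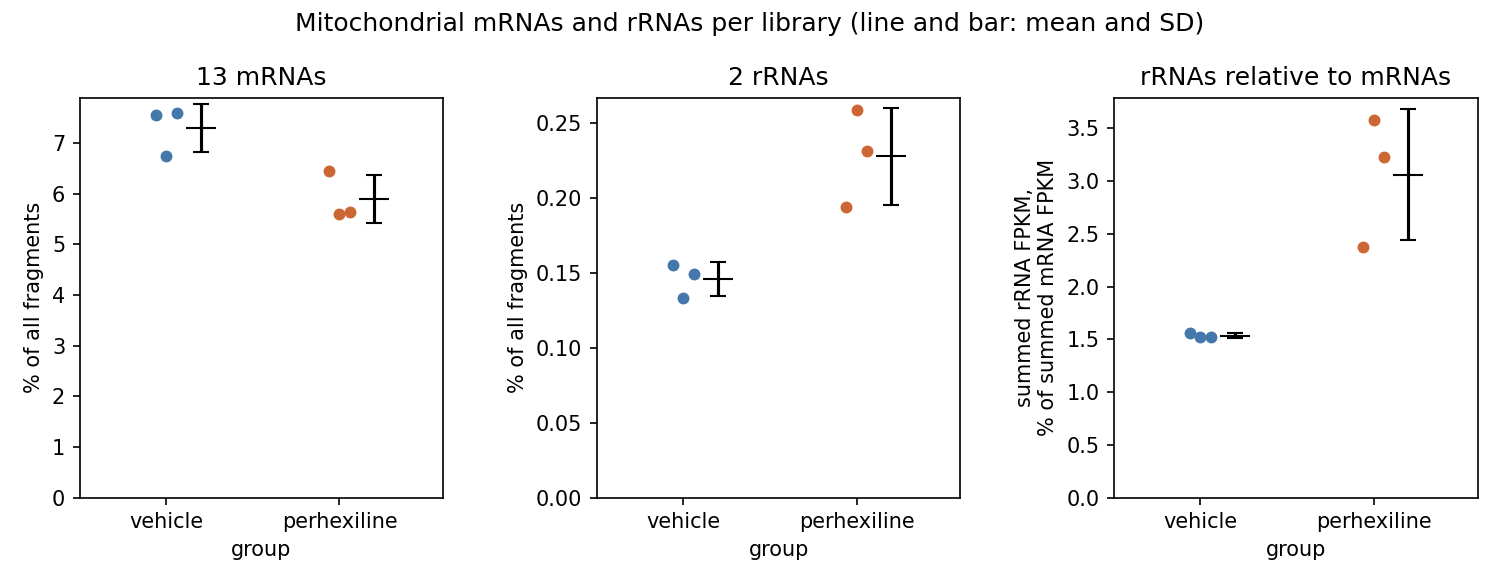
Share of all fragments on the 13 mRNAs (left) and the 2 rRNAs (middle), and summed rRNA FPKM as a percentage of summed mRNA FPKM (right), for each library. Points are libraries, and the line and bar beside them are the mean and SD (n = 3). Perhexiline libraries lie below all vehicle libraries for mRNAs and above all of them for rRNAs and for the rRNA percentage.

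For single genes, log2(FPKM + 1) was compared between groups with limma for genes at 1 FPKM or more in at least 3 libraries, and a gene counted as called where its p, adjusted by Benjamini-Hochberg over all 13460 genes tested, was under 0.05. By this rule 6.66% of all genes tested were called, 3.55% higher and 3.11% lower in perhexiline. Of the 37 mitochondrial genes 35 could be tested, and 3 were called higher and 6 lower. Groups did not overlap in 17 of the 35 (3 above and 14 below), against 31.9% of all genes tested. The 2 untested genes were both tRNA genes with at most 1 fragment in any library. Among all called genes 53.3% were higher, a split that was 42.0% with upper-quartile scaling and 70.7% with scaling to total fragments, while the median difference of all genes stayed between -0.02 and 0.06 on the log2 scale.

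All 13 mRNAs had lower mean FPKM in perhexiline, and 5 of them fell by the test: COX2, ATP6, ND2, CYTB and ND4. None was called higher, with limma or with limma-voom, and none rose at an unadjusted p under 0.05. The 13 log2 differences ran from -0.57 for COX2 to -0.24 for ND3, with a median of -0.34 against 0.01 over all genes tested. Every perhexiline library was below every vehicle library for 12 of the 13, ND6 being the exception, as for 14.9% of all genes tested. All 13 had an unadjusted p under 0.05, and 12.3% of all genes tested had such a p together with a lower value in perhexiline. The markers of the main cell type moved with them, since the 10 cardiomyocyte markers had a median log2 difference of -0.38, and the part of this in the mRNA differences was not tested. The 13 mRNAs are cut from shared precursors, so they are not independent of each other.

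The 5 calls lay close to the threshold and depended on single libraries. With limma, 0 of the 13 passed without any 1 of vehicle replicates 1 and 2 and perhexiline replicates 2 and 3, 1 passed without vehicle replicate 3, and 7 passed without perhexiline replicate 1. The count was 2 with TMM scaling, 3 with scaling to total fragments and 0 when all genes were tested without a filter. It was 10 when limma-voom was run on fragments, by which 809 of all 13460 genes tested were called lower. The log2 difference of every mRNA remained negative under all the alternatives, between -0.64 and -0.17.

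**Figure D2:**
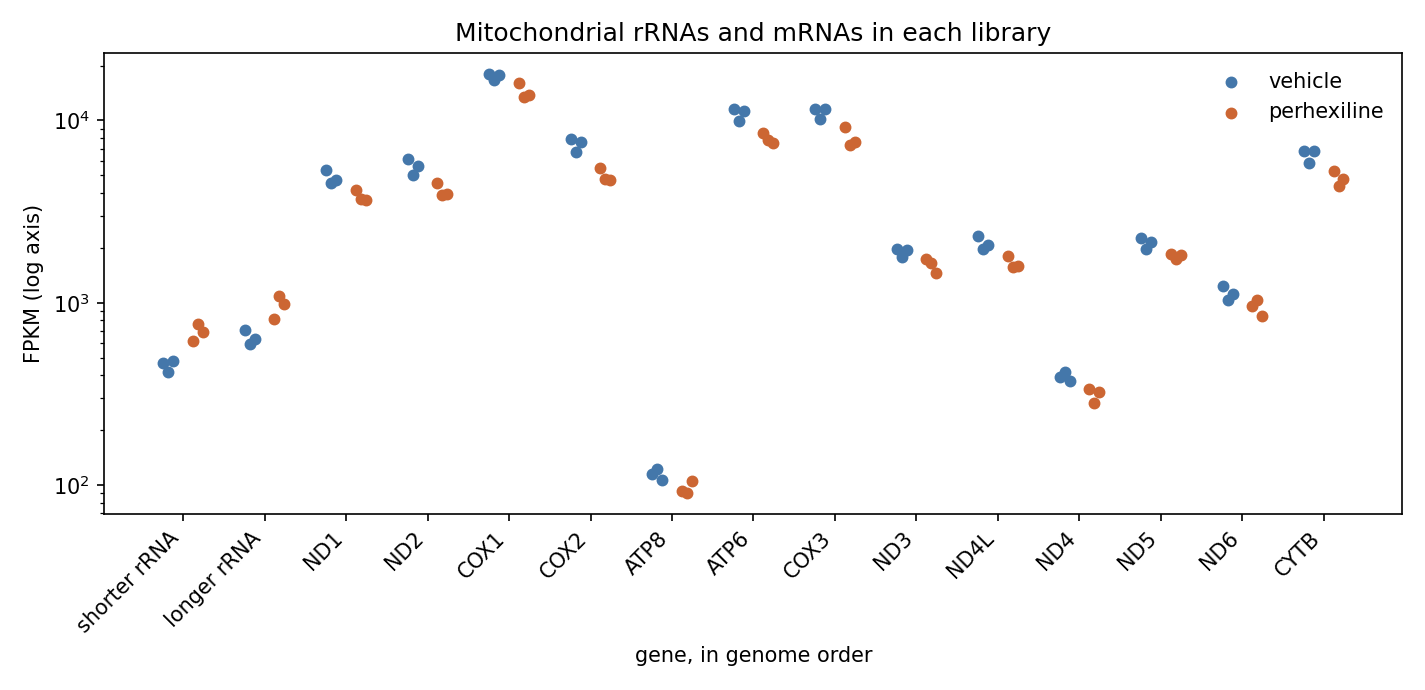
FPKM (log axis) of the 2 rRNAs and 13 mRNAs in genome order, with 1 point per library, vehicle to the left and perhexiline to the right of each gene. Levels run from 90.8 for ATP8 to 17999 for COX1; perhexiline points lie above vehicle points for the 2 rRNAs and below them for every mRNA except ND6, where they overlap.

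Complex IV, cytochrome c oxidase, passes electrons from cytochrome c to oxygen, and its 3 mitochondrial subunits form the catalytic core. COX1 (positions 5323 to 6867, plus strand), which holds the heme and copper centre where oxygen is reduced, had the highest mean FPKM of any gene in the table, with 17999, 16617 and 17745 FPKM in vehicle and 16139, 13519 and 13880 in perhexiline. The groups did not overlap, but the log2 difference of -0.27 ± 0.10 (SE) was not called (limma, adjusted p = 0.156). COX2 (7006 to 7689, plus strand), which carries the copper centre that receives electrons from cytochrome c, had 7881, 6736 and 7665 FPKM in vehicle and 5519, 4777 and 4717 in perhexiline. It fell to 0.674 of the vehicle mean (7427 ± 608 to 5004 ± 447, log2 difference -0.57 ± 0.10, limma adjusted p = 0.0245), the largest decrease among the mRNAs. COX3 (8599 to 9382, plus strand), the third core subunit, had 11523, 10145 and 11581 FPKM in vehicle and 9178, 7374 and 7590 in perhexiline. Its log2 difference of -0.47 ± 0.11 was just outside the threshold (limma, adjusted p = 0.0515) and passed it under 5 of the alternatives.

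COX1 and COX2 are neighbours on the same strand, with tRNA genes alone between them. The log2 ratio of COX2 to COX1 was -1.19, -1.30 and -1.21 in vehicle and -1.55, -1.50 and -1.56 in perhexiline, without overlap. This pair was singled out after its values were seen, and the ratio was given no test.

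Complex V, the ATP synthase, takes 2 subunits of its proton channel from the mitochondrial genome. ATP6 (7919 to 8599, plus strand), the subunit that lines the proton path, had 11584, 9975 and 11303 FPKM in vehicle and 8538, 7829 and 7514 in perhexiline. It fell to 0.727 of the vehicle mean (10954 ± 860 to 7960 ± 525, log2 difference -0.46 ± 0.10, limma adjusted p = 0.0368). ATP8 (7758 to 7961, plus strand), a small accessory subunit read from the same bicistronic mRNA as ATP6, had 115, 123 and 107 FPKM in vehicle and 93.2, 90.8 and 105 in perhexiline, and was not called (log2 difference -0.26 ± 0.07, adjusted p = 0.0820).

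Complex III, cytochrome bc1, has a single mitochondrial subunit. CYTB (14136 to 15278, plus strand), which holds the quinone sites and b hemes, had 6786, 5810 and 6783 FPKM in vehicle and 5251, 4378 and 4749 in perhexiline. All perhexiline libraries were below all vehicle libraries, and CYTB fell to 0.742 of the vehicle mean (6460 ± 563 to 4793 ± 439, log2 difference -0.43 ± 0.10, limma adjusted p = 0.0478).

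Complex I, NADH dehydrogenase, takes 7 membrane-arm subunits from the mitochondrial genome, and 2 of them fell. ND2 (3904 to 4942, plus strand), a proton-pumping subunit, had 6139, 5046 and 5636 FPKM in vehicle and 4535, 3878 and 3932 in perhexiline. It fell to 0.734 of the vehicle mean (5607 ± 547 to 4115 ± 365, log2 difference -0.45 ± 0.10, limma adjusted p = 0.0442). ND4 (10160 to 11537, plus strand), another proton-pumping subunit, had 393, 417 and 372 FPKM in vehicle and 336, 283 and 324 in perhexiline. It fell to 0.797 of the vehicle mean (394 ± 22.3 to 314 ± 27.9, log2 difference -0.33 ± 0.08, limma adjusted p = 0.0470).

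The other complex I mRNAs had lower values in perhexiline that did not pass the test. ND1 (2740 to 3694, plus strand), which joins the membrane arm to the matrix arm near the quinone site, had 5341, 4514 and 4713 FPKM in vehicle and 4131, 3716 and 3684 in perhexiline (adjusted p = 0.0651, limma). ND4L (9870 to 10166, plus strand), a small membrane subunit, had 2321, 1977 and 2071 in vehicle and 1807, 1578 and 1594 in perhexiline, close to the threshold (adjusted p = 0.0513, limma). ND3 (9451 to 9798, plus strand), whose matrix loop lies near the quinone site, had 1985, 1786 and 1947 in vehicle and 1741, 1652 and 1452 in perhexiline. ND5 (11736 to 13565, plus strand), the distal proton-pumping subunit, had 2267, 1984 and 2159 in vehicle and 1855, 1730 and 1830 in perhexiline. The groups did not overlap in any of these 4 genes, and the adjusted p was 0.122 for ND3 and 0.0788 for ND5.

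ND6 (13543 to 14061) is the only mRNA encoded on the minus strand of the table, from the promoter that reads the opposite strand to all the others. It had 1236, 1030 and 1124 FPKM in vehicle and 966, 1042 and 844 in perhexiline. Perhexiline replicate 2 lay above vehicle replicate 2, so the groups overlapped, and the log2 difference of -0.25 ± 0.10 was not called (limma, adjusted p = 0.158). Relative to the summed FPKM of the 12 plus-strand mRNAs, ND6 had a log2 ratio of -5.96 ± 0.05 in vehicle and -5.82 ± 0.19 in perhexiline, which overlapped. ND6 shares 23 bases with ND5 on the opposite strand. The libraries were made with a marked second strand, per the labels' protocols, but no source used here says whether counting used strand, so antisense reads over ND6 cannot be told apart from its own.

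FPKM varied widely among genes of the same precursors, also between genes on the same bicistronic mRNA, where it cannot be read as separate RNA levels. ND4L and ND4 belong to a bicistronic mRNA, yet ND4L had 5.40 ± 0.60 times the FPKM of ND4 in vehicle and 5.29 ± 0.33 times in perhexiline. ATP6 had 95.7 ± 12.99 times the FPKM of ATP8 in vehicle and 83.1 ± 10.4 times in perhexiline. Both ratios overlapped between groups. In each pair the gene with the low value and the gene with the high value share bases, 43 for ATP8 and ATP6 and 7 for ND4 and ND4L. The part of this overlap in the ratios was not tested. How the counting treated fragments that touch overlapping genes, or that match copies of mitochondrial genes in nuclear DNA, is stated in no source used here. The table placed 4 loci described as COX1, ND3 or ND4L proteins outside the mitochondrial chromosome, and these had 0 to 3.34 FPKM.

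Along the genome, the differences followed no clear order. Over the 12 plus-strand mRNAs, the log2 difference and the start coordinate had a Pearson r of 0.10 and a Spearman rho of 0.22. The log2 difference and the log2 mean FPKM had an r of -0.50 and a rho of -0.61, the more abundant mRNAs tending to have the lower values. COX1, the most abundant, went the other way, with a log2 difference of -0.27 against a median of -0.35 over the 12. The correlations are across genes that share precursors and libraries, and are given as a description.

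**Figure D3:**
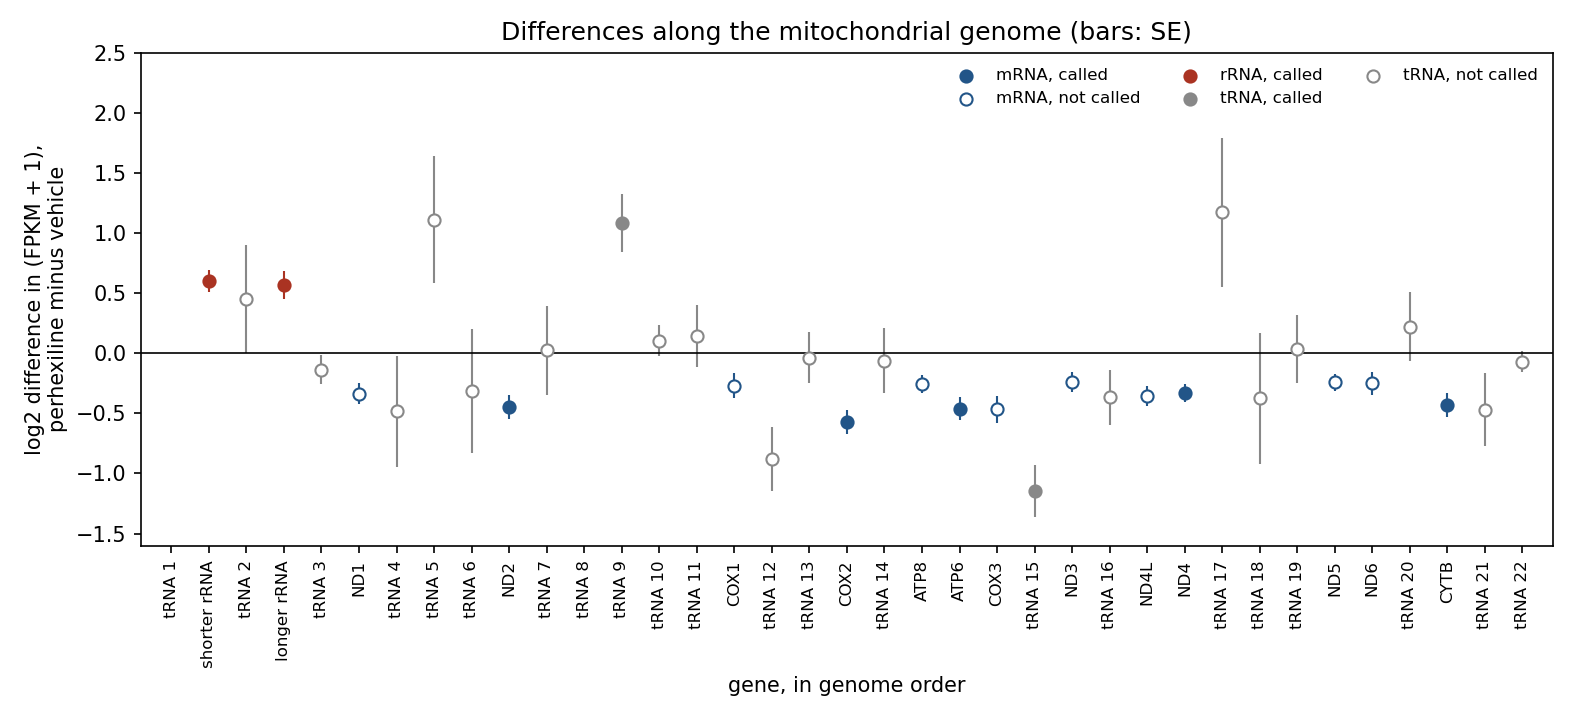
Log2 difference in FPKM + 1, perhexiline minus vehicle, for each tested gene in genome order, with bars for the SE from limma. Filled points were called at an adjusted p under 0.05. The 2 rRNAs lie above 0, all 13 mRNAs lie below it, and the tRNAs scatter on either side with wide bars; the tRNA genes numbered 1 and 8 were not tested and have no point.

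The rRNAs, the RNA core of the mitochondrial ribosome, moved opposite to the mRNAs. The shorter rRNA (positions 68 to 1025, plus strand), of the small ribosomal subunit, had 470, 416 and 478 FPKM in vehicle and 619, 763 and 694 in perhexiline. It rose 1.52-fold (455 ± 33.9 to 692 ± 72.3, log2 difference 0.60 ± 0.09, limma adjusted p = 0.0185). The longer rRNA (positions 1094 to 2664, plus strand), of the large ribosomal subunit, had 711, 592 and 636 FPKM in vehicle and 810, 1093 and 990 in perhexiline. It rose 1.49-fold (646 ± 59.97 to 964 ± 143, log2 difference 0.57 ± 0.12, limma adjusted p = 0.0355). For both genes the perhexiline libraries lay above all vehicle libraries, as they did for 17.0% of all genes tested, and perhexiline replicate 1 was the lowest and replicate 2 the highest of its group.

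The rRNA calls also depended on single libraries. With limma, 0 of the 2 passed without any 1 of vehicle replicates 1 and 2 and perhexiline replicates 2 and 3, 1 passed without vehicle replicate 3 and 2 without perhexiline replicate 1. The largest adjusted p among these was 0.0698 for the shorter and 0.111 for the longer rRNA, and none passed without a filter on low values (adjusted p = 0.0594 and 0.0984); the log2 difference was above 0 under every alternative, from 0.47 to 0.69.

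The balance between rRNAs and mRNAs differed more than either class, which follows from their opposite directions. Summed mRNA FPKM was 71646 ± 4896 in vehicle and 54717 ± 4657 in perhexiline, a ratio of 0.764. Summed rRNA FPKM was 1101 ± 87.0 and 1656 ± 215, a ratio of 1.504. By mean share of fragments these ratios were 0.808 and 1.562. As a percentage of mRNA FPKM, rRNA FPKM was 1.56%, 1.52% and 1.52% in vehicle, and 2.38%, 3.58% and 3.22% in perhexiline. The vehicle libraries were nearly identical in this measure and the perhexiline libraries were spread widely above them (1.54 ± 0.02% and 3.06 ± 0.62%). On the log2 scale the difference was 0.97, and between 0.85 and 1.15 when each library was left out in turn. This ratio does not depend on how the libraries are scaled.

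The ratio of the shorter to the longer rRNA was 0.705 ± 0.046 in vehicle and 0.721 ± 0.037 in perhexiline, with overlap. The longer rRNA and ND1, which lie on either side of a single tRNA gene on the plus strand, had a log2 ratio of -2.91, -2.93 and -2.89 in vehicle and -2.35, -1.77 and -1.90 in perhexiline, without overlap. That separation follows from the longer rRNA being higher and ND1 lower in every perhexiline library.

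Nuclear RNAs that usually lack a poly(A) tail were summed in the same libraries. Nuclear snoRNA genes, which guide RNA modification, summed to 1469 ± 134 FPKM in vehicle and 1507 ± 39.2 in perhexiline, and nuclear rRNA genes to 79.1 ± 8.55 and 76.2 ± 12.8, both with overlap. Nuclear scaRNA genes, which guide modification of snRNAs, summed to 31.3 ± 4.89 and 34.3 ± 7.10 FPKM, also with overlap. Nuclear snRNA genes, the RNAs of the spliceosome, were lower in every perhexiline library (494 ± 24.4 and 429.6 ± 17.0 FPKM). These biotype sums were chosen after the table was seen, because of a list of 8 nuclear RNAs without a tail only 3 were in the table and 0 could be tested. Those 3 summed to 0.55 ± 0.78 FPKM in vehicle and 1.249 ± 0.39 in perhexiline, with overlap, and 1 of them was at 0 in every library. The part of RNA selection in the rRNA difference was not tested.

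The tRNAs, which carry amino acids to the mitochondrial ribosome, were measured with few fragments and showed no shared direction. The table names them by clone, so they are numbered here from 1 to 22 in genome order. Their genes are 60 to 75 bases long, and mature tRNAs lack a poly(A) tail and are shorter than a typical library fragment, and the source of the fragments counted on them was not tested. Summed tRNA FPKM was 1097 ± 101 in vehicle and 1045 ± 65.7 in perhexiline, with overlap. Of 22 genes 20 were tested, and 1 was called higher and 1 lower, against 3.55% and 3.11% of all genes tested. With 20 genes, counts of 1 are near those shares.

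A single gene held most of the tRNA signal. tRNA 22 (15348 to 15415, minus strand), the last gene before the control region, had 785, 649 and 760 FPKM in vehicle and 645, 747 and 697 in perhexiline, with 675 to 826 fragments per library. The groups overlapped, and the gene was not called (log2 difference -0.07 ± 0.09, limma adjusted p = 0.660). It made up 66.7 ± 4.11% of summed tRNA FPKM in vehicle and 66.6 ± 1.65% in perhexiline. The next most abundant, tRNA 3 (2665 to 2739, plus strand, between the longer rRNA and ND1), had 106, 77.6 and 83.9 FPKM in vehicle and 81.7, 87.4 and 72.7 in perhexiline, and also overlapped.

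tRNA 9 rose. This gene (5081 to 5152, minus strand), in the cluster between ND2 and COX1, had 10.1, 20.9 and 11.9 FPKM in vehicle and 24.9, 33.6 and 32.7 in perhexiline, from 10, 23 and 12 and from 31, 38 and 41 fragments. The groups did not overlap, and the mean was 2.12 times that of vehicle (14.3 ± 5.78 to 30.4 ± 4.79, log2 difference 1.09 ± 0.24, limma adjusted p = 0.0425). The 2 tested neighbours in that cluster on the same strand, tRNA 10 and tRNA 11, had overlapping groups, with log2 differences of 0.11 ± 0.13 and 0.14 ± 0.26.

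tRNA 15 fell. This gene (9383 to 9450, plus strand), between COX3 and ND3, had 21.4, 13.5 and 16.8 FPKM in vehicle and 9.35, 7.49 and 5.06 in perhexiline, from 20, 14 and 16 and from 11, 8 and 6 fragments. The mean was 0.424 of that of vehicle (17.2 ± 3.97 to 7.30 ± 2.15, log2 difference -1.15 ± 0.22, limma adjusted p = 0.0303). tRNA 12 (6865 to 6933, minus strand, overlapping the end of COX1 by 3 bases) had 12.6, 11.4 and 16.6 FPKM in vehicle and 10.05, 7.38 and 4.16 in perhexiline. Its groups did not overlap either, but it was not called (adjusted p = 0.0893, limma).

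Neither tRNA call held with limma-voom, which called 0 of the 20. tRNA 9 passed in 2 of the 6 fits that left out a library (without vehicle replicate 2 and without perhexiline replicate 1), with an adjusted p up to 0.142, and tRNA 15 in 1 (without perhexiline replicate 1), with an adjusted p up to 0.0952. Groups of the other 17 tested tRNAs overlapped.

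By strand, the 13 tested plus-strand tRNAs had a median log2 difference of -0.13 and the 7 tested minus-strand tRNAs one of 0.14. Summed minus-strand tRNA FPKM was compared with summed plus-strand FPKM as a log2 ratio. It was 1.74 ± 0.26 in vehicle and 1.92 ± 0.11 in perhexiline, with overlap. The minus-strand sum came mostly from the last gene before the control region. That gene alone made up 66.7% of summed tRNA FPKM of both strands in vehicle and 66.6% in perhexiline. The ratio therefore mainly compared that gene with the plus-strand tRNAs, and a difference between the strands as a whole was not tested. At the low end, tRNA 1 (1 to 67, plus strand, the first gene) had 0 fragments in all libraries, which allows up to 2.57 to 3.25 FPKM per library (3 fragments). tRNA 8 (5010 to 5078, minus strand) had 1 fragment in vehicle replicate 1 and 0 elsewhere.

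**Figure D4:**
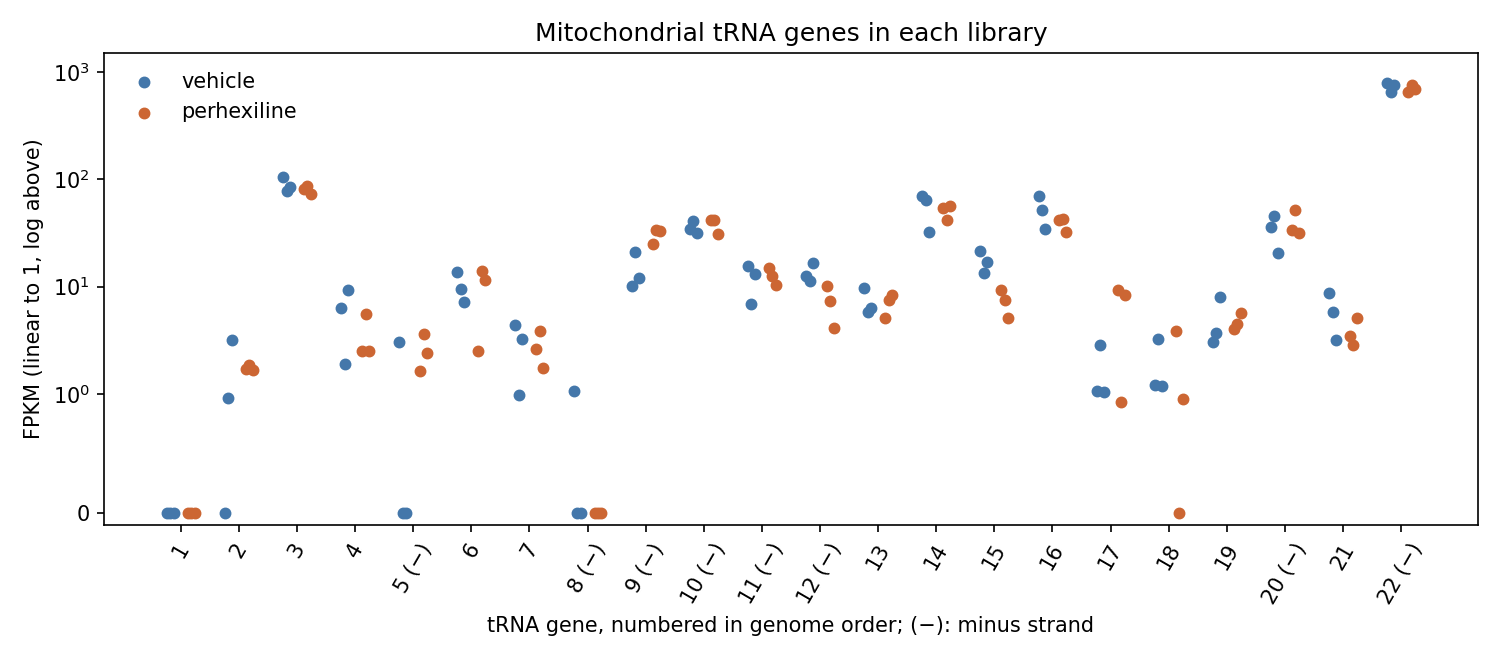
FPKM of the 22 mitochondrial tRNA genes in genome order, with 1 point per library, on an axis that is linear up to 1 and logarithmic above. tRNA 22 stands far above the rest at 645 to 785 FPKM; the groups separate at tRNA 9 (perhexiline higher) and at tRNA 12 and tRNA 15 (perhexiline lower).

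Most nuclear genes for subunits of the same complexes also had lower values in perhexiline. Of 72 tested nuclear subunits of complexes I, III, IV and V, 70 had a negative log2 difference, with a median of -0.19. With limma 10 were called lower and 0 higher, against 3.11% of all genes called lower. At an unadjusted p under 0.05, 46 were lower and 0 higher, against 12.3% of all genes tested being lower. Limma-voom called 19 lower and 0 higher, against 809 lower of all 13460 genes tested. In complex I 7 of 35 fell, among them Ndufa5 (274 to 221 FPKM, adjusted p = 0.013), Ndufs1, the largest iron-sulfur subunit (159 to 122, adjusted p = 0.020), and Ndufa10 (86.3 to 70.2, adjusted p = 0.025), all by limma. In complex III 3 of 9 fell: the core proteins Uqcrc1 and Uqcrc2 and the Rieske iron-sulfur protein Uqcrfs1. In complexes IV and V 0 of 12 and 0 of 16 were called with limma (7 and 9 at an unadjusted p under 0.05, 2 and 3 with limma-voom), and all 28 had negative values. The count of 10 was 0 without vehicle replicate 1, perhexiline replicate 2 or perhexiline replicate 3, 1 without vehicle replicate 2 and 16 without perhexiline replicate 1. It was 1 without a filter on low values, 18 where genes needed a mean of 5 FPKM, 5 with scaling to total fragments and 6 with that total taken without mitochondrial genes.

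The ratio of mitochondrial to nuclear subunit mRNA separated the groups in complex V and overlapped in the others. The log2 differences between group means were -0.26 in complex V, -0.23 in III, -0.23 in IV and -0.17 in I. ATP6 held 10954 of the 11069 mitochondrial FPKM of complex V in vehicle, so that ratio mainly reflects 1 gene. In complex V, the log2 ratio of the summed FPKM was 0.28, 0.02 and 0.30 in vehicle and -0.05, -0.06 and -0.08 in perhexiline, without overlap. For complex I it was 1.41 ± 0.16 and 1.24 ± 0.03, for complex III 1.16 ± 0.18 and 0.93 ± 0.08, and for complex IV 2.30 ± 0.15 and 2.06 ± 0.10, all with overlap. Vehicle replicate 2 had the lowest ratio of the vehicle libraries in every complex.

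**Figure D5:**
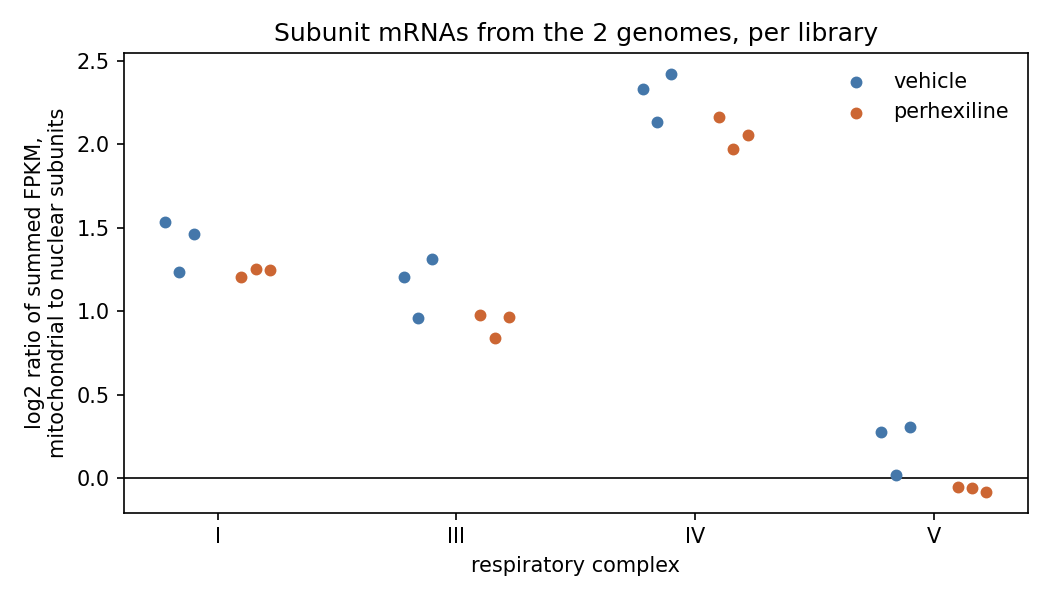
Log2 ratio of summed FPKM of mitochondrial to nuclear subunits of respiratory complexes I, III, IV and V, with 1 point per library. Perhexiline points lie below all vehicle points in complex V, and the groups overlap in complexes I, III and IV.

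Nuclear genes that transcribe and process mitochondrial RNA gave no calls. Over all genes tested 6.66% were called, and in lists of 9, 11 and 18 genes a count of 0 is near that share. Of 9 tested genes of mitochondrial transcription 7 had a negative and 2 a positive log2 difference, with a median of -0.05. With limma 0 were called (2 lower and 0 higher at an unadjusted p under 0.05, 0 with limma-voom). Tfam, which packages mitochondrial DNA and opens its promoters, was at 30.7 and 30.4 FPKM (adjusted p = 0.930, limma), and Mrpl12, a ribosomal protein that also binds the polymerase, at 99.2 and 89.2 (adjusted p = 0.139, limma). Replication genes (11 tested, among them Ssbp1 and Polg) gave 0 calls with limma, 0 at an unadjusted p under 0.05 and 0 with limma-voom. RNA cleavage and modification genes (18 tested, among them Trnt1, which adds CCA to tRNAs, and Pus1) gave 0 calls with limma and 0 with limma-voom. Of these 18, 14 had a positive and 4 a negative log2 difference, and 1 was lower at an unadjusted p under 0.05.

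Among 18 tested genes of mitochondrial RNA stability and decay 2 fell and 0 rose, against 3.11% and 3.55% of all genes tested. Lrpprc, which binds mitochondrial mRNAs and keeps them stable and polyadenylated, had 61.3, 60.4 and 56.3 FPKM in vehicle and 50.6, 50.2 and 51.9 in perhexiline. It fell by 0.22 on the log2 scale (59.4 ± 2.65 to 50.9 ± 0.90, limma adjusted p = 0.045), and all perhexiline libraries lay below all vehicle libraries. Ptcd3, a pentatricopeptide protein of the small mitochondrial ribosomal subunit, fell by 0.32 (37.7 ± 1.95 to 30.1 ± 1.27, limma adjusted p = 0.029). Neither was called without any 1 of vehicle replicates 1 and 2 and perhexiline replicates 2 and 3, with an adjusted p up to 0.147 and 0.101. The count of 2 was 0 without a filter on low values and 1 with either scaling to total fragments.

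Of 10 tested nuclear regulators of mitochondrial genes 2 fell and 1 rose, against 3.11% and 3.55% of all genes tested. Of the 10, 6 had a positive and 4 a negative log2 difference, with a median of 0.06. At an unadjusted p under 0.05, 2 were higher and 2 lower. Perm1, a muscle regulator of oxidative metabolism, fell by 0.53 on the log2 scale (27.4 ± 1.87 to 18.7 ± 2.40 FPKM, limma adjusted p = 0.029). Ppargc1a, the coactivator of mitochondrial biogenesis, fell by 0.30 (30.5 ± 1.11 to 24.7 ± 1.52, limma adjusted p = 0.037), and its relative Pprc1 rose by 0.28 (18.5 ± 0.73 to 22.7 ± 1.17, limma adjusted p = 0.038). Of the 6 fits that left out a library, Ppargc1a was called in 0, Pprc1 in 1 and Perm1 in 2, and 0 of the 10 regulators were called without a filter on low values.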

How the data were processed

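Values were analysed as deposited by the authors: FPKM per gene and library, per the file headers, with gene length, biotype and coordinates. HISAT2 2.0.5 and DESeq2 are listed, without their roles, per the submitters' processing notes; no source used here gives the genome build, annotation or counter. FPKM times gene length gave whole multiples of 1 step per library for 100.0% of positive values within 0.01, and these multiples were taken as fragments. Genes at 1 FPKM or more in at least 3 of 6 libraries entered 1 two-sided limma fit (version 3.58.1, R 4.3.3) of log2(FPKM + 1) on group alone, with a trended empirical Bayes prior. Every adjusted p comes from this fit unless another is named, folds are ratios of mean FPKM, and log2 differences, on the log2(FPKM + 1) scale, understate the change of low genes. Sums and ratios over members were given no test. Of 199 list symbols 186 were matched by symbol, 3 by synonym or identifier, and 10 had no match. The named genes were all 37 members and, of each list, up to 3 called genes with the smallest adjusted p or, with none called, the 2 most abundant. The members and lists were chosen with earlier results of these data known. Alternatives were other pseudocounts, filters, scalings, limma-voom, a replicate block and leaving out each library. The fit was also run on simulated data with independent genes, which does not measure how well the calls above would repeat.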

Additional observations from a re-analysis of the deposited data

How the results depend on the processing

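The 9 called mitochondrial genes became 0 with no filter on low values, and 0 to 2 without any library but perhexiline replicate 1 (12). Counts over all genes moved from 896 to 162 with no filter, 1562 with limma-voom and 173 with the replicate block, and lay between 87 and 841 with each library left out. The mRNAs called lower (5) were 0 with no filter, 8 where genes needed a mean of 5 FPKM, 3 with scaling to the total with or without mitochondrial genes, 2 with TMM scaling and 10 with limma-voom (0 to 7 with each library left out). The rRNAs called higher (2) were 0 with no filter and 0 to 2 with each library left out. The single tRNA called higher and the single tRNA called lower were each 0 with no filter and with limma-voom, and 0 to 1 and 0 to 2 with each library left out. With a replicate block 0 rRNAs were called (adjusted p = 0.0563 and 0.0911, limma), as were 0 RNA stability genes, 0 regulators and 1 nuclear subunit. Whether replicate numbers pair the libraries is not given in the labels, and correlations between the deviations of 3 libraries per group cannot settle it. These were -0.02, -0.10 and -0.04 for same-numbered libraries and -0.05 to 0.09 for the others.

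Some uncalled tRNAs changed sign: tRNA 7 was at -0.0102 with a pseudocount of 5 and tRNA 13 at 0.014 with scaling to total fragments. With each library left out, log2 differences crossed 0 for tRNA 2 (-0.053 to 0.97), tRNA 6 (-0.70 to 0.34), tRNA 7 (-0.40 to 0.32), tRNA 11 (-0.17 to 0.36), tRNA 13 (-0.17 to 0.16), tRNA 14 (-0.40 to 0.14), tRNA 18 (-0.97 to 0.17), tRNA 19 (-0.19 to 0.38) and tRNA 20 (-0.086 to 0.46). Where a call was lost, the cause was not tested, except that leaving out a library or the filter on low values means fewer samples or more genes tested. Depth limits the tRNAs, of which all but tRNA 3 and tRNA 22 had at most 65 fragments in any library. The planned count models were not run; of models for counts, limma-voom on the recovered fragments was.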

Other observations

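The 5 named genes outside the mitochondrial genome whose level was most like the summed mitochondrial mRNA level over the 6 libraries had a Pearson r of 0.992 to 0.999, and 0 of the 5 belonged to any of the gene lists. This is a description of libraries that share their group difference.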
